A study of Mus musculus with 3 samples.

Results

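The Hox clusters are 4 groups of neighbouring genes for homeodomain transcription factors, named Hoxa, Hoxb, Hoxc and Hoxd. Their chromatin was described in pro-B cells with antibodies against 3 histone modification states. The clusters were taken as fixed windows of the mouse genome build mm9. Hoxa was chr6:52100001-52220000, Hoxb chr11:96040001-96235000, Hoxc chr15:102745001-102875000 and Hoxd chr2:74495001-74610000. In bins of 1 kb they gave 120, 195, 130 and 115 bins, so that the 560 bins of the clusters were set beside the 2285014 bins of the genome with a read in any library.

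All 3 libraries came from RAG2-/- Abelson-transformed pro-B cells, labelled as strain C57BL/7 and kept in RPMI1640 medium with serum. A pro-B cell is an early stage of the B lineage. RAG2 belongs to the recombinase that cuts antigen receptor genes for their assembly, and the Abelson virus keeps the cells growing in culture. One chromatin immunoprecipitation library was sequenced with an antibody against H3R2me2s (symmetric dimethylation of arginine 2 of histone H3), 1 against H3R2me2sK4me3 (the same mark together with trimethylated lysine 4, called the combined mark) and 1 against H3K4me3. The first pair of antibodies was raised by the submitters and the last was bought. The whole study is of 1 cell culture type with no second library of any antibody and no input or IgG library used here, so no p-value was computed. Intervals given in brackets are exact 95% intervals of counting error, and they do not cover the spread between cultures or preparations.

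Hox proteins set position along the body axis of the embryo, and the order of the genes within a cluster follows the order in which they act along that axis. Genes with low numbers act toward the head and genes with high numbers toward the tail. In blood formation, several Hoxa and Hoxb genes are active in stem and progenitor cells and are turned down as cells mature. H3K4me3 is typical of the start sites of active or poised genes, and Hox clusters that are silent usually carry the Polycomb mark H3K27me3, which was not measured in these libraries.

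The gene order, but no position, was taken from a RefSeq gene table for GRCm38.p6, which is a different build from that of the reads. That table lists 11 Hoxa, 10 Hoxb, 9 Hoxc and 9 Hoxd genes. With rising coordinate Hoxa ends with Hoxa13, whereas Hoxb runs from Hoxb13 to Hoxb1, Hoxc from Hoxc13 to Hoxc4 and Hoxd from Hoxd13 to Hoxd1. In each cluster the end with the highest gene number is called the Hox13 end, and the other the opposite end. No annotation of mm9 was used, so no signal was placed at the start site of a named gene, and the genome sequence of the windows was not checked.

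Sequence before a start site is shown for the outermost genes with a RefSeq entry at both ends of Hoxa and Hoxd, the clusters whose Hox13 end was the higher one in all 3 libraries. Each run is the 250 bases before the start in GRCm38.p6, written 5′ to 3′ on the strand of the gene, with each CG dinucleotide in capitals. CG reads the same on both strands, and 92.1% of 32851 such runs in the mouse table hold at least 1. Hoxa2 and Hoxa13 lie on the minus strand of chromosome 6, and Hoxd13 and Hoxd1 on the plus strand of chromosome 2.
Hoxa2: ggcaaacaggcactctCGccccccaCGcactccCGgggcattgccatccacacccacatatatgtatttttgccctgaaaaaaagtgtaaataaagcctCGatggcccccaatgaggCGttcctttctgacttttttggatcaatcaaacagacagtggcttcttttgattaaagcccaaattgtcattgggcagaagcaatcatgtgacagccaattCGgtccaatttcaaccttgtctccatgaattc
Hoxa13: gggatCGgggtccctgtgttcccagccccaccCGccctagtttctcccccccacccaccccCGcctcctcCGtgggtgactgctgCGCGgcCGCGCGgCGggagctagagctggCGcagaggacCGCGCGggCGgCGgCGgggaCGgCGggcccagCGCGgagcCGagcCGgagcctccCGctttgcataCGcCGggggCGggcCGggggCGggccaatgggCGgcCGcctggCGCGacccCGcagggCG
Hoxd13: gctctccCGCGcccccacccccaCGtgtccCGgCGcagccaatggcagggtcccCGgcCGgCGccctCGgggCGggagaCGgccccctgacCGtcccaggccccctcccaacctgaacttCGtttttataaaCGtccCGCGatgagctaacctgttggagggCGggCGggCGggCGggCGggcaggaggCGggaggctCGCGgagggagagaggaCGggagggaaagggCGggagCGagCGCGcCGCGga
Hoxd1: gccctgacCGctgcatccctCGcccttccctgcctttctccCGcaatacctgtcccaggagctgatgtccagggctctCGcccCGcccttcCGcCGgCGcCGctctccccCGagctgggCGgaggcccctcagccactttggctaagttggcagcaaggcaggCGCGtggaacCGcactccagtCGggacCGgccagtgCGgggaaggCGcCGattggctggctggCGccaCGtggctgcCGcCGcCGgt

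The run before Hoxa13 holds 35 CG dinucleotides, and 97.0% of all runs hold fewer. The run before Hoxa2 holds 6, and 49.6% hold fewer. The run before Hoxd13 holds 31 and that before Hoxd1 holds 24, with 94.8% and 88.0% of all runs below them. A count over the whole gene family was void, because 22 of the 39 Hox genes had an entry. The reads were not placed on these sequences, and nothing about the marks follows from them.

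The H3R2me2s library held 6923765 reads, that of the combined mark 7128852 and that of H3K4me3 13898471. Background was the mean over bins farther than 5 kb from every enriched bin, and it came to 2.35, 1.86 and 2.98 reads per bin in the same order. A level is the number of reads per bin as a multiple of that background. Enriched bins held at least 4 times the genome mean and had a Poisson tail under 1e-06. The limits came to 15, 16 and 25 reads, or levels of 6.37, 8.60 and 8.39. Of the 560 bins, 4 held no read in any library, of which 1 lay in Hoxa, 1 in Hoxb and 2 in Hoxd.

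The shares of enriched bins in the 4 clusters did not differ from those of the genome beyond counting error. The 3 bins called for the combined mark lay in Hoxb. For H3R2me2s 5 of the 560 bins were enriched, or 0.893% (0.291 to 2.07), beside 1.23% of all bins of the genome. For the combined mark 3 bins were enriched, or 0.536% (0.111 to 1.56), beside 1.45%. For H3K4me3 11 bins were enriched, or 1.96% (0.985 to 3.49), beside 2.45%. The H3K4me3 share lay near that of the genome, and its interval holds the genome value, as does that of H3R2me2s. The interval of the combined mark also reaches the genome value, so none of the 3 shares differed from the genome beyond counting error.

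By cluster, H3K4me3 was enriched in 7 of 195 bins in Hoxb, 2 of 120 in Hoxa and 2 of 115 in Hoxd. It was enriched in 0 of 130 bins in Hoxc, which allows a share of up to 2.31% at 3 counts of the total, with an exact upper limit of 2.80%. H3R2me2s was enriched in 3 bins in Hoxb, 1 in Hoxc, 1 in Hoxd and 0 of 120 in Hoxa, which allows up to 2.50% at 3 counts, with an exact upper limit of 3.03%. The combined mark was enriched in 3 bins in Hoxb and in no bin of Hoxa, Hoxc or Hoxd. In every cluster the exact interval of each share held that of the genome. The genome shares were 2.45% for H3K4me3, 1.23% for H3R2me2s and 1.45% for the combined mark. In the tracks of the 4 clusters the tallest peaks of every library lay in Hoxb, on the Hoxb1 side of its centre.

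**Figure D1:**
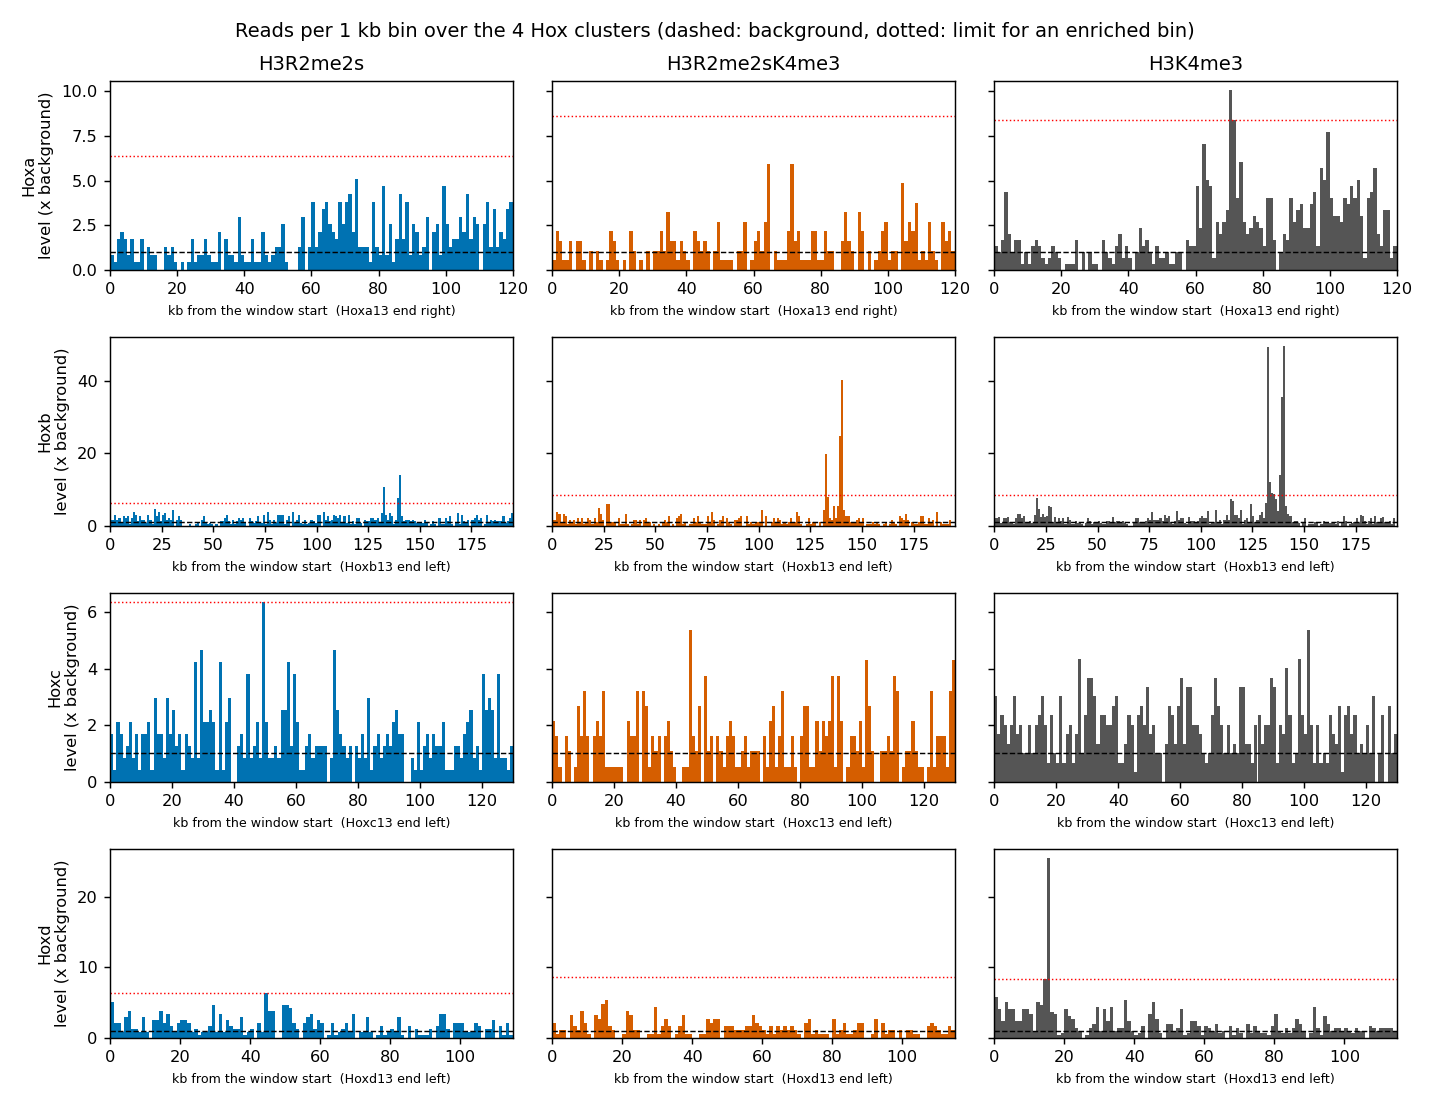
Reads per 1 kb bin as a multiple of background (vertical axis, shared along each row) against distance in kb from the low-coordinate start of each window, for the 4 clusters (rows) and the 3 libraries (columns, 1 library each). The dashed line is background and the dotted line the limit for an enriched bin; Hoxb reaches a level of 49.7 for H3K4me3, while Hoxc stays at 5.37 or less.

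Over all their bins, enriched ones included, the clusters lay above background. The mean H3R2me2s level was 1.63 (1.49 to 1.79) in Hoxa, 1.71 (1.59 to 1.84) in Hoxb, 1.58 (1.45 to 1.73) in Hoxc and 1.66 (1.51 to 1.82) in Hoxd. For H3K4me3 the level was 2.20 (2.05 to 2.36) in Hoxa, 2.58 (2.45 to 2.71) in Hoxb, 1.91 (1.78 to 2.06) in Hoxc and 2.08 (1.93 to 2.23) in Hoxd. For the combined mark it was 1.24 (1.103 to 1.40) in Hoxa, 1.82 (1.69 to 1.97) in Hoxb, 1.40 (1.26 to 1.56) in Hoxc and 1.30 (1.15 to 1.46) in Hoxd. All 12 intervals lay above 1. The mean of all bins of the genome, which includes the enriched bins, lay at 1.29 (H3R2me2s), 1.68 (combined mark) and 2.04 (H3K4me3). Hoxa, Hoxc and Hoxd were below that mean in the combined mark, and Hoxc in H3K4me3.

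The raised level reached many bins, but in Hoxb much of it was held in a few. There 2 regions held 35.5% of the H3K4me3 reads and 28.7% of those of the combined mark. At least 2 times background was reached by 34.3% of the cluster bins for H3R2me2s (30.4 to 38.4), beside 19.1% of all bins. For H3K4me3 the share was 43.9% (39.8 to 48.2), beside 19% of all bins. For the combined mark it was 26.4% (22.8 to 30.3), beside 20.4%. The median bin held 3 H3R2me2s reads in the clusters and 2 in the genome, and 5 H3K4me3 reads beside 3. The median for the combined mark was 2 reads in both.

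**Figure D2:**
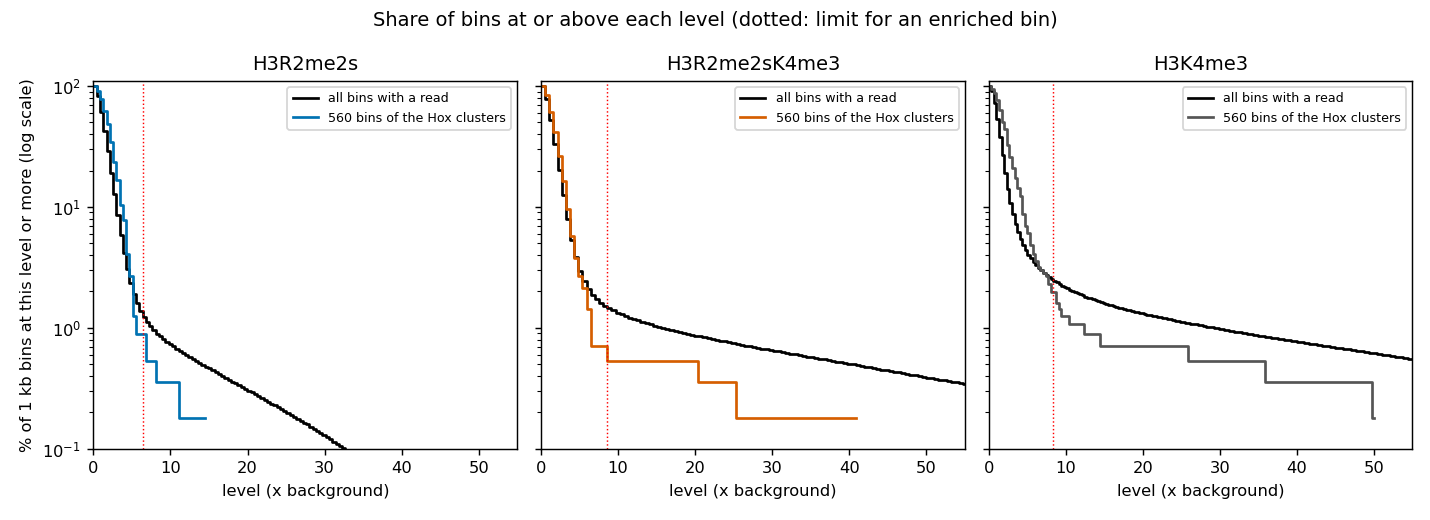
Percentage of 1 kb bins (log scale) at or above each level, in multiples of background, for all bins with a read and for the 560 bins of the Hox clusters, with 1 panel per library and a dotted line at the limit for an enriched bin. At 2 times background the clusters lie above the genome (43.9% beside 19% for H3K4me3). Past the dotted line they lie below it, and at that line the interval of counting error holds the genome share in each library.

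With every bin within 5 kb of an enriched bin left out, 492 bins of the clusters remained. Their mean H3R2me2s level was 1.55 (1.47 to 1.62), that of the combined mark 1.30 (1.22 to 1.37) and that of H3K4me3 1.80 (1.74 to 1.87). In these bins H3R2me2s stood at nearly one level in all clusters, at 1.53 in Hoxa, 1.54 in Hoxb and 1.55 in both Hoxc and Hoxd. H3K4me3 was less even, at 2.03 (1.88 to 2.19) in Hoxa, 1.94 (1.79 to 2.09) in Hoxc, 1.73 (1.57 to 1.89) in Hoxd and 1.62 (1.51 to 1.73) in Hoxb. Over the 6 pairs of clusters, the ratio of H3R2me2s between clusters ran from 0.986 to 0.999, and each interval held 1. For H3K4me3 Hoxa was 1.26 times Hoxb (1.13 to 1.39) and 1.18 times Hoxd (1.04 to 1.33), and Hoxb was 0.835 of Hoxc (0.754 to 0.925).

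Windows of the same length elsewhere in the genome give a scale for these levels. In the same kind of bins, 2.78% of 13893 genome windows of the length of Hoxa had more H3K4me3 than Hoxa, and the median window was at 0.991. For windows as long as Hoxc the share was 3.92%, for Hoxd 8.56% and for Hoxb 11.3%. For H3R2me2s between 18.9% and 19.8% of windows were higher than the cluster, and for the combined mark between 27.3% and 35.1%. In these bins the clusters stood farther toward the upper end of the genome for H3K4me3 than for the other antibodies. Over all bins they did not: 32.6% to 39.1% of windows were higher for H3K4me3, 31.6% to 35.3% for H3R2me2s and 38.6% to 48.6% for the combined mark. Levels are relative to the background of the same library, since no input library was used.

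**Figure D3:**
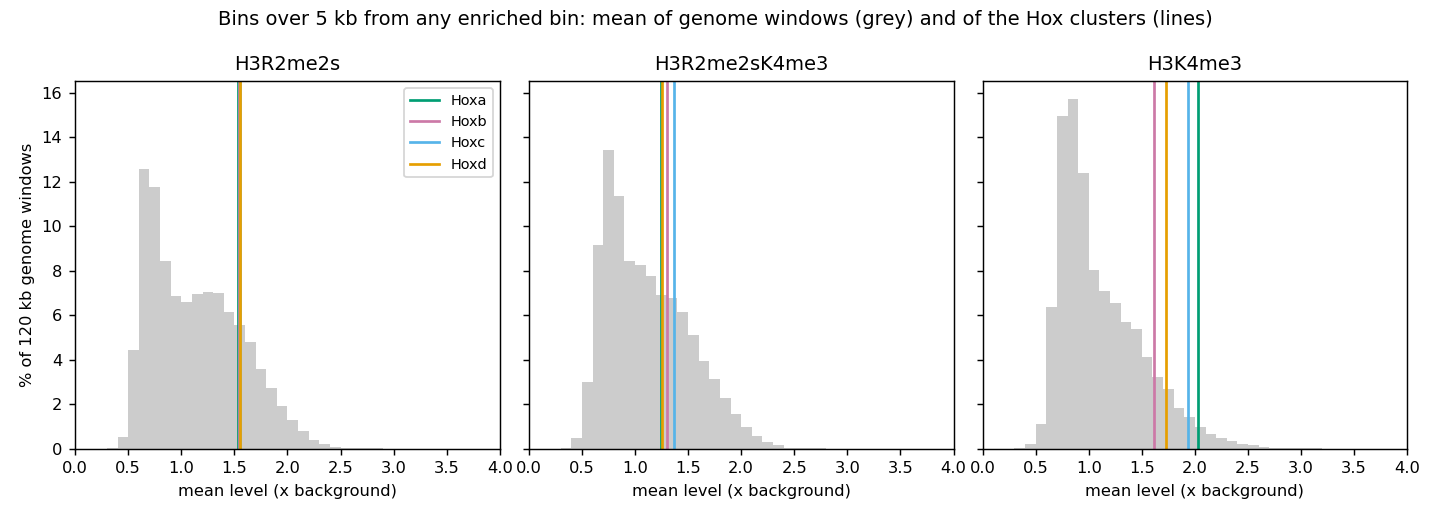
Distribution of the mean level, in multiples of background, over 120 kb windows of the genome (grey bars, % of windows) and the 4 Hox clusters at their own lengths (lines), with bins within 5 kb of an enriched bin left out and 1 panel per library. The 4 lines nearly coincide for H3R2me2s, between 1.53 and 1.55, and spread from 1.62 to 2.03 for H3K4me3.

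The ends of the clusters were compared over the outer sections when each window was cut into 3 of near equal length. In Hoxa and Hoxd the Hox13 end was higher in all 3 libraries, in Hoxc the interval of the ratio of these sections held 1 in every library, and in Hoxb the opposite end was higher with its peaks included. The Hox13 end of Hoxa had a level of 3.16 for H3K4me3 (2.84 to 3.49), and the opposite end stood at background with 0.999 (0.827 to 1.20). For H3R2me2s these ends were at 2.22 (1.93 to 2.54) and 0.913 (0.730 to 1.13), and for the combined mark at 1.42 (1.17 to 1.72) and 0.967 (0.757 to 1.22). The ratio of the Hox13 end to the opposite end was 3.16 for H3K4me3 (2.56 to 3.92), 2.43 for H3R2me2s (1.88 to 3.16) and 1.47 for the combined mark (1.08 to 2.01). None of the 40 bins of the Hox13 end of Hoxa was called in any library, so the difference came from bins below the calling limit. Its median bin held 10 H3K4me3 reads, beside 3 at the opposite end.

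Hoxa did not slope from end to end but changed level between neighbouring segments of 10 kb. H3K4me3 reads in the 6 segments from the low-coordinate end numbered 48, 28, 15, 28, 31 and 26. In the next 6 they numbered 105, 130, 67, 118, 111 and 80. H3R2me2s reads numbered 28, 16, 17, 25, 21 and 23, and then 64, 58, 51, 47, 56 and 55. Every one of the upper 6 segments held more reads of both marks than any of the lower 6, and the change lay near chr6:52160001. The combined mark went from 20, 14, 10, 28, 22 and 14 reads to 30, 34, 23, 24, 34 and 25, and its lower and upper segments overlapped. Where this change lies relative to the Hoxa genes could not be read without an annotation of mm9.

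In Hoxd H3K4me3 was highest at the Hox13 end. The H3K4me3 level was 3.55 (3.21 to 3.92) at that end, 1.38 in the middle and 1.32 (1.11 to 1.55) at the opposite end, a ratio of ends of 2.70 (2.23 to 3.28). For H3R2me2s the levels were 2.00, 1.75 and 1.22, with a ratio of ends of 1.64 (1.29 to 2.10). H3R2me2s did not decline steadily, since its reads in segments of 10 kb from the Hox13 end numbered 55, 47, 42, 38, 54, 58, 32, 21, 22, 37 and 32. The highest segment, chr2:74545001-74555000, lay in the middle at a level of 2.46. For the combined mark they were 1.65, 1.28 and 0.961, with a ratio of 1.72 (1.27 to 2.36). With bins near enriched bins left out, the ratios were 2.02, 1.55 and 1.59, so the H3K4me3 difference was reduced but each interval still excluded 1. The 100 kb beyond the Hox13 end of Hoxd were themselves raised, at 3.41 for H3K4me3, 1.87 for H3R2me2s and 2.51 for the combined mark. The 100 kb on the other side stood at 2.12, 1.64 and 1.68, above the opposite end of the cluster in each library. The flanks of the other clusters had H3K4me3 levels between 0.846 and 1.35.

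In Hoxc H3K4me3 was flat. Its level was 1.97 at the Hoxc13 end, 1.92 in the middle and 1.86 at the Hoxc4 end, with a ratio of ends of 1.06 (0.883 to 1.27). All 13 segments of 10 kb lay between 1.48 and 2.62, each with an interval above 1. The spread of H3K4me3 over the Hoxc bins away from enriched bins, as variance over mean of the reads, was 1.54, beside 4.06 in Hoxa and 2.12 in the background bins of the genome. H3R2me2s in Hoxc had a ratio of ends of 1.20 (0.952 to 1.504) and the combined mark 0.794 (0.604 to 1.04), in opposite directions, with both intervals holding 1. Cut at its centre into sections of 65 bins instead, Hoxc had 271 H3R2me2s reads on the Hoxc13 side and 214 on the other. The ratio was 1.27 (1.055 to 1.52), an interval of counting error alone that excludes 1.

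**Figure D4:**
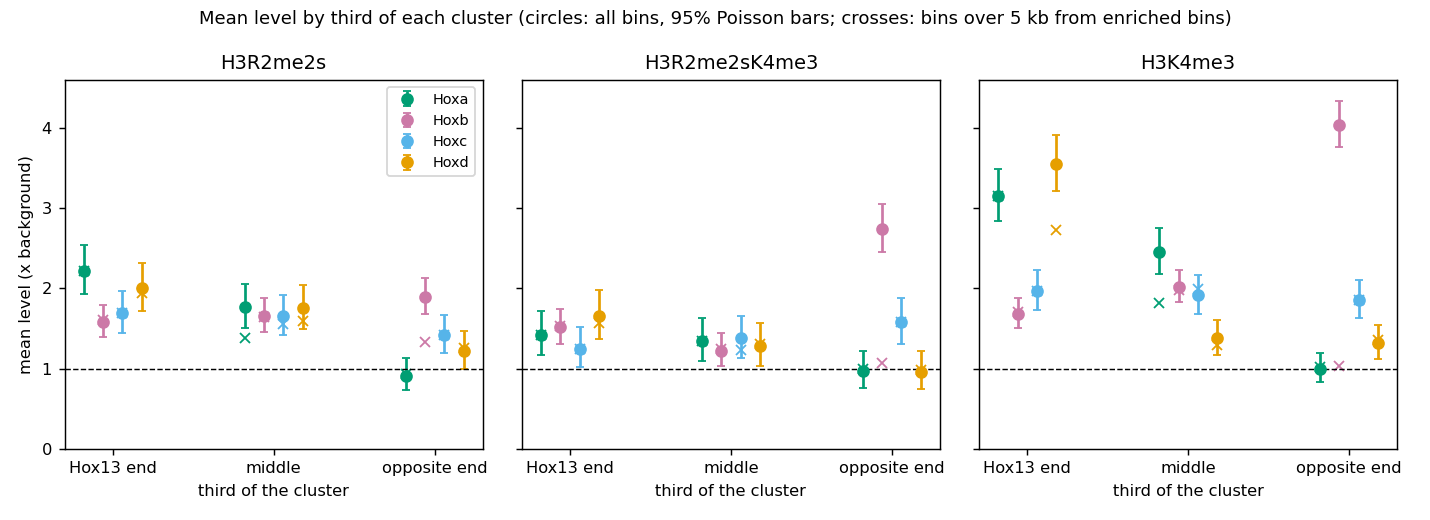
Mean level in multiples of background for each outer and middle section of the 4 clusters, with 95% Poisson bars (circles) and with bins within 5 kb of an enriched bin left out (crosses), 1 panel per library. Hoxa goes from 3.16 to 0.999 for H3K4me3 between its Hox13 and opposite ends, and Hoxb loses its high opposite end once its enriched stretch is left out (4.04 to 1.03).

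In Hoxb the order of the ends depended on its peaks. With all bins, the opposite end had H3K4me3 at 4.04 (3.76 to 4.33) and the Hox13 end at 1.68 (1.51 to 1.88), a ratio of Hox13 end to opposite end of 0.417 (0.365 to 0.475). With bins within 5 kb of an enriched bin left out, the opposite end fell to 1.03 (0.870 to 1.21) and the ratio turned to 1.66 (1.37 to 2.03). The ratio of the combined mark went from 0.553 (0.459 to 0.664) to 1.44 (1.12 to 1.87). The ratio of H3R2me2s went from 0.834 (0.701 to 0.993) to 1.20 (0.979 to 1.48). Toward the Hoxb13 end, the 10 kb segment chr11:96060001-96070000 held no enriched bin but had an H3K4me3 level of 3.69 (3.04 to 4.45). The combined mark stood there at 2.69 (1.99 to 3.54) and H3R2me2s at 2.46 (1.87 to 3.18). The segment chr11:96150001-96160000 stood at 3.32 for H3K4me3 (2.70 to 4.05). Away from enriched bins the Hox13 end was thus higher than the opposite end for H3K4me3 in Hoxa, Hoxb and Hoxd. In Hoxb, unlike the others, the middle was highest in these bins, at 1.98 (1.78 to 2.20) beside 1.71 (1.53 to 1.91) at the Hox13 end. This choice of bins kept 64 of 65 at the Hox13 end of Hoxb and 49 of 65 at the opposite end.

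The enriched bins of the 4 clusters formed 6 regions when the calls of all libraries were merged. The pair in Hoxb, 2 kb apart, held 7 of the 11 H3K4me3 calls. The region nearer the Hoxb13 end, chr11:96172001-96176000, had 236 H3K4me3 reads, 59 of the combined mark and 44 of H3R2me2s, at levels of 19.8, 7.92 and 4.67. The region nearer the Hoxb1 end, chr11:96178001-96181000, had 296, 131 and 55 reads, at levels of 33.1, 23.5 and 7.79. For scale, the median of the 18406 regions of the genome with an H3K4me3 call was 24.3 for H3K4me3, 13.03 for the combined mark and 6.37 for H3R2me2s. Together the 2 Hoxb regions held 35.5% of the H3K4me3 reads of Hoxb, 28.7% of those of the combined mark and 12.6% of those of H3R2me2s.

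The Hoxb regions differed in the combined mark relative to H3K4me3 and not measurably in H3R2me2s. With reads scaled to the library total (CPM), the ratio of the combined mark to H3K4me3 was 0.487 (0.360 to 0.651) in the region nearer Hoxb13 and 0.863 (0.697 to 1.06) in that nearer Hoxb1. The quotient of these ratios was 0.565 (0.390 to 0.813). The ratio of H3R2me2s to H3K4me3 was 0.374 (0.265 to 0.518) and 0.373 (0.274 to 0.499), with a quotient of 1.00 (0.635 to 1.58). The genome medians were 0.711 for the combined mark and 0.408 for H3R2me2s. Within each region the highest 100 bp bin was at the same place in all 3 libraries, chr11:96172801-96172900 and chr11:96180101-96180200. At the former it held 53 H3K4me3, 12 combined-mark and 6 H3R2me2s reads, and at the latter 42, 27 and 13.

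**Figure D5:**
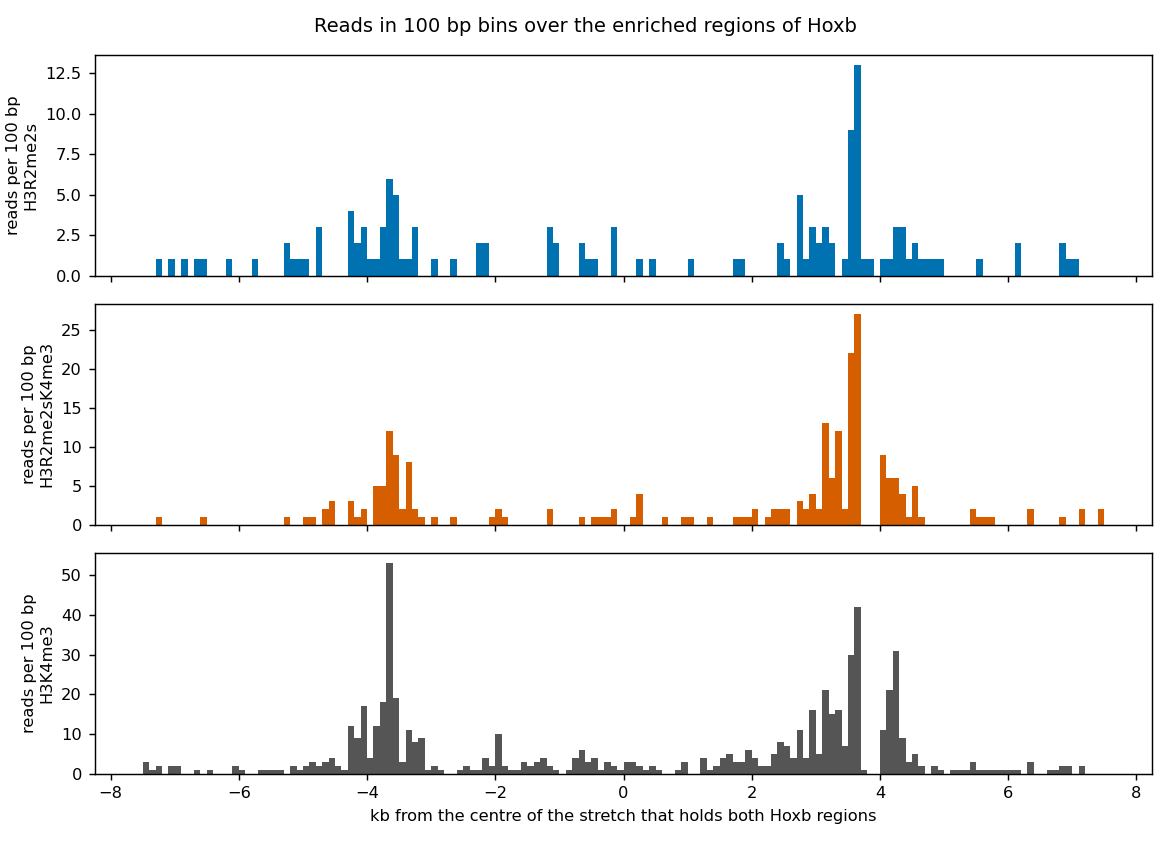
Reads per 100 bp bin (vertical axis, 1 panel per library with its own scale) against distance in kb from the centre of the stretch that holds both enriched regions of Hoxb. In every library the highest bins lie at the same places in both regions, with 53 and 42 reads for H3K4me3 and 12 and 27 reads for the combined mark.

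The enriched stretch of Hoxd held few reads of the combined mark for its H3K4me3, and its highest bin also few of H3R2me2s. The H3K4me3 level of the stretch was itself below 24.3, the median of the genome's regions with an H3K4me3 call. The region chr2:74509001-74511000, near the Hox13 end, had 101 H3K4me3 reads at a level of 16.95, with 19 reads of the combined mark at 5.10 and 14 of H3R2me2s at 2.97. Over this region the CPM ratio of the combined mark to H3K4me3 was 0.367 (0.212 to 0.603), below the genome median of 0.711. For H3R2me2s it was 0.278 (0.147 to 0.489), and this interval holds the genome median of 0.408. The bin chr2:74509001-74510000 had 25 H3K4me3 reads, 9 of the combined mark and 9 of H3R2me2s. The highest bin, chr2:74510001-74511000, had 76 H3K4me3 reads, 10 of the combined mark and 5 of H3R2me2s. Among the 3631 other bins of the genome with 69 to 83 H3K4me3 reads and an H3K4me3 call, the median was 23 reads of the combined mark and 14 of H3R2me2s. The 10th percentile of these bins was 14 and 8 reads, and the Hoxd bin lay below both. Of the 101 H3K4me3 reads, 98 were at distinct positions and strands.

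In Hoxa the only enriched region, chr6:52170001-52172000, was called for H3K4me3 alone. It had 55 reads at a level of 9.23 (6.96 to 12.02), with 15 reads of the combined mark at 4.03 and 19 of H3R2me2s at 4.03. Its bins of 30 and 25 H3K4me3 reads lay just inside the limit of 25. The other 2 regions were single bins called for H3R2me2s at its limit of 15 reads, chr15:102794001-102795000 in Hoxc and chr2:74539001-74540000 in Hoxd. Each had 10 H3K4me3 reads, at a level of 3.36, and the combined mark had 7 and 5 reads. Neither bin was called when the reads were moved 150 bp or the bins 500 bp. The Hoxc bin was also lost with reads left in place, and the Hoxd bin with repeated reads counted once.

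The highest bin of a cluster was not always the same one in each library. In Hoxb it was chr11:96180001-96181000 for all 3, with 148 H3K4me3 reads, 75 of the combined mark and 33 of H3R2me2s. Among 3052 other called bins with 134 to 162 H3K4me3 reads the medians were 57 and 25, and the Hoxb bin lay between the 10th and 90th percentiles for both marks. In Hoxa the highest bins were chr6:52170001-52171000 with 30 H3K4me3 reads and chr6:52173001-52174000 with 12 of H3R2me2s. For the combined mark chr6:52164001-52165000 and chr6:52171001-52172000 tied at 11 reads. The latter adjoined the highest H3K4me3 bin and held 25 H3K4me3 reads. In Hoxc they were chr15:102846001-102847000 with 16 H3K4me3 reads, chr15:102789001-102790000 with 10 of the combined mark and the called H3R2me2s bin. The highest bins of Hoxc thus lay at different places in the 3 libraries, while in Hoxa a tied bin of the combined mark adjoined that of H3K4me3. Most of these bins hold few reads, and whether their places differ beyond counting error was not tested.

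Over whole clusters, background included, H3R2me2s per H3K4me3 lay between its values in the enriched bins and in the background bins of the genome. For the combined mark Hoxa lay below the enriched bins, and the intervals of Hoxb, Hoxc and Hoxd held the value of the enriched bins. The CPM ratio of H3R2me2s to H3K4me3 was 1.18 (1.046 to 1.32) in Hoxa, 1.053 (0.964 to 1.15) in Hoxb, 1.31 (1.17 to 1.48) in Hoxc and 1.27 (1.12 to 1.43) in Hoxd. In the 56028 bins enriched for H3K4me3 outside the clusters it was 0.400, and in background bins 1.59, so the clusters lay between these. The ratio of the combined mark to H3K4me3 was 0.689 (0.598 to 0.791) in Hoxa and 0.861 (0.785 to 0.944) in Hoxb. In Hoxc it was 0.892 (0.782 to 1.016) and in Hoxd 0.762 (0.661 to 0.877). The enriched bins had 0.812 and background bins 1.22. Most bins of a cluster lie below the calling limit, so these sums hold much background. For H3R2me2s a ratio above 0.400 follows from that and is no result about the clusters. The levels of the 3 antibodies have no common standard.

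With background subtracted, net H3R2me2s per net H3K4me3 was 0.526 ± 0.072 in Hoxa, 0.450 ± 0.043 in Hoxb, 0.640 ± 0.093 in Hoxc and 0.612 ± 0.085 in Hoxd, where the error is the SE from counting. The same quotient was 0.232 in the enriched bins outside the clusters and 0.275 over all bins. For the combined mark it was 0.204 ± 0.064 in Hoxa, 0.521 ± 0.050 in Hoxb, 0.439 ± 0.090 in Hoxc and 0.278 ± 0.075 in Hoxd, beside 0.657 in the enriched bins and 0.649 over all bins. Per net H3K4me3, the 4 clusters thus had more net H3R2me2s and less net combined mark than the enriched bins of the genome. Each difference was more than 2 SE of counting error. The enriched bins were picked by their H3K4me3 reads, whereas most bins of the clusters lie below that limit. This quotient was not taken in bins or windows of like H3K4me3 level. Whether the contrast is particular to the Hox clusters was therefore not tested. Reads varied more between bins than counting error gives, also away from enriched bins. There the variance over mean of H3K4me3 and the combined mark was 3.26 and 1.83 in Hoxb, and 1.54 and 1.52 in Hoxc. The SE leaves this spread out, and whether the difference of any cluster exceeds it was not tested. The background subtracted was that of the whole genome, also in the clusters.

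Across the 560 bins the combined mark and H3K4me3 went together, with a Pearson r of 0.832 and a Spearman rho of 0.403. For H3R2me2s with H3K4me3 the values were 0.596 and 0.429, and for H3R2me2s with the combined mark 0.580 and 0.304. Bins share local sequence and library depth and are not independent replicates. In the 492 bins away from enriched bins r was 0.361, 0.382 and 0.277 in the same order, beside 0.342, 0.347 and 0.310 in the background bins of the genome. The high r of the combined mark and H3K4me3 therefore rested on the few bins near the peaks.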

How the data were processed

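Each line of the deposited files is 1 mapped read with a length of 39 bases, so the read counts per bin are counts as the authors deposited them, unscaled. The build was mm9 per the submitters' processing notes. Per the labels' protocols, sonicated chromatin was precipitated, amplified by PCR and sequenced on the Genome Analyzer. The aligner and its treatment of repeats and duplicates are not given in the sources used here. Duplicates, meaning reads at an occupied position and strand, were 5.22% of the H3R2me2s library, 2.64% of that of the combined mark and 6.20% of that of H3K4me3.

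Read starts were shifted 75 bp toward 3′ and summed over 1 kb bins with Python 3.11.15, numpy 2.4.6 and scipy 1.17.1. Enriched bins with at most 1 kb between them were merged. The 95% intervals are exact Poisson for levels, exact Clopper-Pearson for shares and exact binomial for ratios of reads. They cover counting error only, since amplified reads carry no molecular identifiers. Calls and intervals were tested on simulated data, the intervals on Poisson counts only. The extra spread of the real bins was not part of that test of the intervals. Genome windows did not overlap and had a read in at least 90% of their bins. Those compared away from enriched bins kept at least 50% of their bins. Named were all regions called in a cluster and each cluster's highest bin per library. The windows and lists were chosen with earlier results of these data known. Levels at Hox start sites were not computed and the cell type was not checked against marker genes, since no mm9 annotation was used.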

Additional observations from a re-analysis of the deposited data

How the results depend on the processing

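The results were 50 values, with 359 comparisons under 13 other settings. Of these, 298 kept their direction and stayed close, 48 moved and 13 reversed. The 298 include 12 ratios of ends with the mean of all bins as background. Background cancels in such a ratio, so these were entered as unchanged and are no check. Settings with bins away from enriched bins were chosen after seeing the data. No paired analysis was possible because no antibody has a second library, and no replicate can be left out. Levels at start sites of Hox genes were not run.

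With a bin called at 8 times the mean, enriched H3K4me3 bins numbered 0 in Hoxa, 3 in Hoxb and 1 in Hoxd, H3R2me2s bins 0 in Hoxc and Hoxd, and H3R2me2s regions 2. With reads moved 150 bp, H3R2me2s bins numbered 0 in Hoxc and Hoxd and its regions 2. With reads left in place, Hoxc had 0 H3R2me2s bins and Hoxd 1 H3K4me3 bin. With bins moved 500 bp, Hoxc and Hoxd had 0 H3R2me2s bins and Hoxb 5 of the combined mark. With libraries thinned to equal depth, Hoxa and Hoxd had 1 H3K4me3 bin each and the Hoxa H3K4me3 level was 2.02. With repeated reads counted once Hoxd had 0 H3R2me2s bins, and with a limit also from the flanks it had 0 of these and 1 H3K4me3 bin.

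With the mean of all bins as background, levels of H3R2me2s, the combined mark and H3K4me3 were 1.27, 0.743 and 1.08 in Hoxa, 1.33, 1.09 and 1.26 in Hoxb, 1.23, 0.836 and 0.937 in Hoxc, and 1.29, 0.775 and 1.02 in Hoxd. The values under 1 reversed. That mean includes the enriched bins, which is why it is higher. In bins away from enriched bins the levels were 2.03 for H3K4me3 in Hoxa, 1.54, 1.30 and 1.62 in Hoxb, and 1.73 for H3K4me3 in Hoxd.

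With ends of 20 kb the ratio of the Hox13 end to the opposite end reversed in Hoxb. It became 1.20 (0.883 to 1.64), 1.58 (1.04 to 2.40) and 1.29 (0.958 to 1.73) in the order above. The intervals of H3R2me2s and H3K4me3 hold 1. Cut at its centre, Hoxb kept its direction at 0.849, 0.636 and 0.468. With ends of 20 kb the ratio moved to 2.51 for H3K4me3 in Hoxa, 4 for H3K4me3 in Hoxd and 0.948 for H3R2me2s in Hoxc. Away from enriched bins the Hoxb ratios reversed to 1.20, 1.44 and 1.66, and Hoxd H3K4me3 moved to 2.02. Net of background, H3R2me2s per H3K4me3 was 0.526 in Hoxa, 0.450 in Hoxb, 0.640 in Hoxc and 0.612 in Hoxd, and the combined mark 0.204, 0.521, 0.439 and 0.278. The H3R2me2s values in Hoxa, Hoxc and Hoxd reversed, from CPM ratios above 1, and the other 5 moved. Away from enriched bins the CPM ratio to H3K4me3 was 1.52 for H3R2me2s and 0.982 for the combined mark in Hoxb, and 0.883 for the combined mark in Hoxd. Pearson r there was 0.277 for H3R2me2s with the combined mark, 0.382 for H3R2me2s with H3K4me3 and 0.361 for the combined mark with H3K4me3. The cause of the other changes was not tested. Depth set the calling limits at 15 to 25 reads per bin, and weaker signal was not called.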

Other observations

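Within the Hoxb region nearer Hoxb1, the 300 bp next to the highest 100 bp bin held almost no reads in any library. The stretch chr11:96180201-96180500 had 1 H3K4me3 read, 0 of the combined mark and 2 of H3R2me2s. The 300 bp before it had 79, 51 and 23 reads, and the 300 bp after it had 63, 21 and 5. The stretch was chosen after its values were seen, and whether reads of 39 bases can be mapped there was not tested.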
